A study of Mus musculus with 7 samples.

Results

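Amino acid transporters are membrane proteins that move amino acids and related small molecules into, out of and within cells, and their genes are spread over several solute carrier (Slc) families. The genes described here are all those whose symbol places them in families Slc1, Slc3, Slc6, Slc7, Slc36, Slc38 or Slc43, found by symbol alone, with no measured value in the rule; the families themselves were picked with earlier results of these data known. The rule takes 61 of the 49585 genes in the files: 7 of Slc1, 2 of Slc3, 19 of Slc6, 15 of Slc7, 4 of Slc36, 11 of Slc38 and 3 of Slc43. It leaves out 2 Slc6 genes whose symbols end in a letter (Slc6a20a and Slc6a20b) and the antisense or opposite-strand genes Slc36a1os, Slc36a3os, Slc6a19os and Slc7a6os. All 61 are protein-coding in GENCODE release M21. Not every product carries amino acids: Slc6a6 carries taurine, Slc6a8 creatine, Slc6a3 dopamine and Slc43a3 purine nucleobases.

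RNA was sequenced from MS-1 cells, a mouse endothelial line from pancreatic islets, in 3 libraries labelled control (wild type) and 4 libraries labelled LPL overexpression. Lipoprotein lipase (LPL) splits the triglyceride of lipoproteins into fatty acids. All cells were grown in DMEM, a medium that itself contains amino acids, and the labels give no treatment, time, clone, vector or species of the LPL sequence, and no vector-only control was analysed. Nothing in them ties a replicate to a culture of its own, and the p-values therefore reflect library-to-library spread, which may be technical.

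Large neutral amino acids such as leucine enter many cells through heteromeric carriers, in which a heavy chain (Slc3a2) holds a transporting light chain of family Slc7 at the surface. Glutamine and other small neutral amino acids are taken up with sodium by Slc38 carriers and exchanged by Slc1a5, and the glutamine gained can be traded for leucine by the heteromeric carriers. In endothelial cells arginine, which enters mainly through cationic carriers such as Slc7a1, is the substrate of nitric oxide synthase (Nos3), and transporters at lysosomes (Slc36a1, Slc38a7, Slc38a9) connect stored amino acids to the growth kinase complex mTORC1.

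Between 24328418 and 29210847 sense-orientation reads were counted per library. Lpl was represented by 8 reads over the 3 control libraries together and by 10867 to 12753 reads in each LPL overexpression library. Of 12 genes that mark endothelial cells, 11 were tested, of which 7 were lower, 1 was higher and 3 were not called, and their summed level ranged from 6058 to 6161 CPM (counts per 1000000) in controls and from 5049 to 5235 in LPL overexpression. For this and the other marker lists, the shares over all 13639 genes tested were 21.3% lower and 21.9% higher. All 12 genes on a list of pigment cell markers were higher with LPL overexpression, from a summed 3.19 to 3.76 CPM in controls to 1404 to 1474 CPM, and 8 of them had no read in any control library. Of these 12 genes, 10 had at most 3 control reads and passed the count filter only through the LPL overexpression libraries. The direction of those 10 was therefore fixed before the test. Markers of blood cells and macrophages summed to 71.8 to 77.2 CPM in controls and 94.5 to 104 CPM in LPL overexpression. Of these 8 markers 2 were tested, of which 1 was higher and 1 lower, and Adgre1 had 0 reads. Markers of islet and exocrine cells summed to 6.91 to 8.03 CPM in controls and 7.85 to 9.42 in LPL overexpression, with 2 of 8 tested, Cela1 higher (2 and 69 reads), Krt19 not called and Ins1, Ins2 and Sst at 0 reads. Those of mural cells and fibroblasts summed to 5.45 to 6.16 and 7.33 to 8.03 CPM, with 3 of 8 tested, Cspg4 higher (1 and 84 reads), Pdgfrb and Pdgfra not called and Dcn at 0 reads. Cela1 and Cspg4 also passed the count filter only through the LPL overexpression libraries, which fixed their direction. The endothelial marker Cldn5 had 1 read in all. The pigment cell genes move with the groups in every result that follows, and their part in those results was not tested. In bulk RNA, fewer cells of a type and less RNA per cell cannot be told apart.

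Transporter genes were higher more often than lower with LPL overexpression, and nearly all changes were small. Of the 61 genes, 14 had no read in any library and 20 others had too few reads to be tested (at most 51 reads over the 7 libraries), which left 27 tested. By edgeR's quasi-likelihood test, with p-values adjusted over all 13639 genes tested and a threshold of 0.05, 13 of the 27 were higher, 7 were lower and 7 were not called. The 20 calls are 74.1% of the tested members, against 43.2% of all genes tested. The 13 higher calls are 48.1% of the tested members (21.9% of all genes) and the 7 lower calls 25.9% (21.3% of all genes). Among genes at 10 TPM (transcripts per 1000000) or more in controls the background share was 46.9%, against 13 of 16 members at that level (7 higher, 6 lower).

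Calls of at least 1.5-fold were 3 of 27 (11.1%, against 8.47% of all genes): Slc6a17, Slc43a1 and Slc1a6, all higher. Slc6a17 and Slc43a1 passed the count filter only through the LPL overexpression libraries, where they are high. The direction of these calls is therefore no independent support, and both count among the higher calls. In contrast, 11 of the 20 called members changed by less than 1.25-fold. The median log2 fold change was 0.13 over the 27 members and 0.00 over all genes tested, and the median size without regard to sign was 0.19 and 0.12. The CPM ranges of the groups did not overlap for 18 of the 27 members (66.7%, against 44.6% of all genes), with 12 higher and 6 lower. Among calls of members, 65.0% were higher. With limma on TPM that figure was 75.0%, and with library size as the only scaling 73.7%, where the share over all genes moved from 50.7% to 61.3% and 65.1%.

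**Figure D1:**
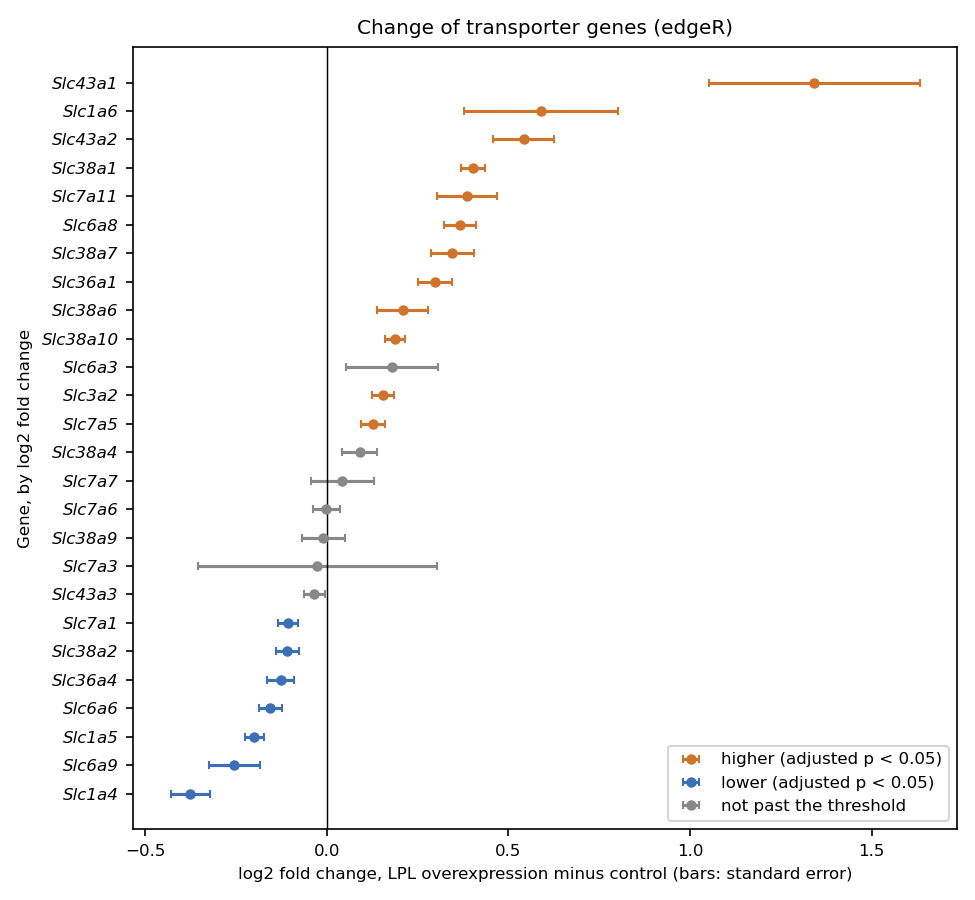
Each point is the log2 fold change of one tested transporter gene, LPL overexpression minus control, with its standard error (horizontal axis), and genes are ordered by it. Orange genes were higher and blue genes lower at an adjusted p under 0.05 in edgeR; Slc6a17, with no control read, is left off. Most called genes lie within 0.40 of 0, Slc1a4 marks the low end at -0.38 and Slc43a1 the high end at 1.34.

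In level, a handful of carriers made up most of the transporter RNA. TPM, which accounts for gene length and can be compared between genes, was at least 100 in controls for 5 members, from 10 to 100 for 11, from 1 to 10 for 8 and under 1 for 37. Slc38a2 alone held 29.9% of the members' TPM in controls and 27.8% in LPL overexpression, and the 6 highest genes together (Slc38a2, Slc3a2, Slc1a5, Slc43a3, Slc7a5 and Slc7a1) 74.0% and 72.2%. All members summed to 1398 ± 44.6 TPM in controls (SD, n = 3) and 1419 ± 16.0 in LPL overexpression (SD, n = 4), about 0.14% of all TPM in either group, and the total overlapped between groups. The 27 tested genes were also ordered by mean TPM within each group. Neighbours overlapped in range in 1 of 26 pairs in controls (Slc7a11 and Slc1a6) and in 11 of 26 in LPL overexpression. The order differs between the groups and the ranges span 3 and 4 libraries, so these counts are not like for like.

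**Figure D2:**
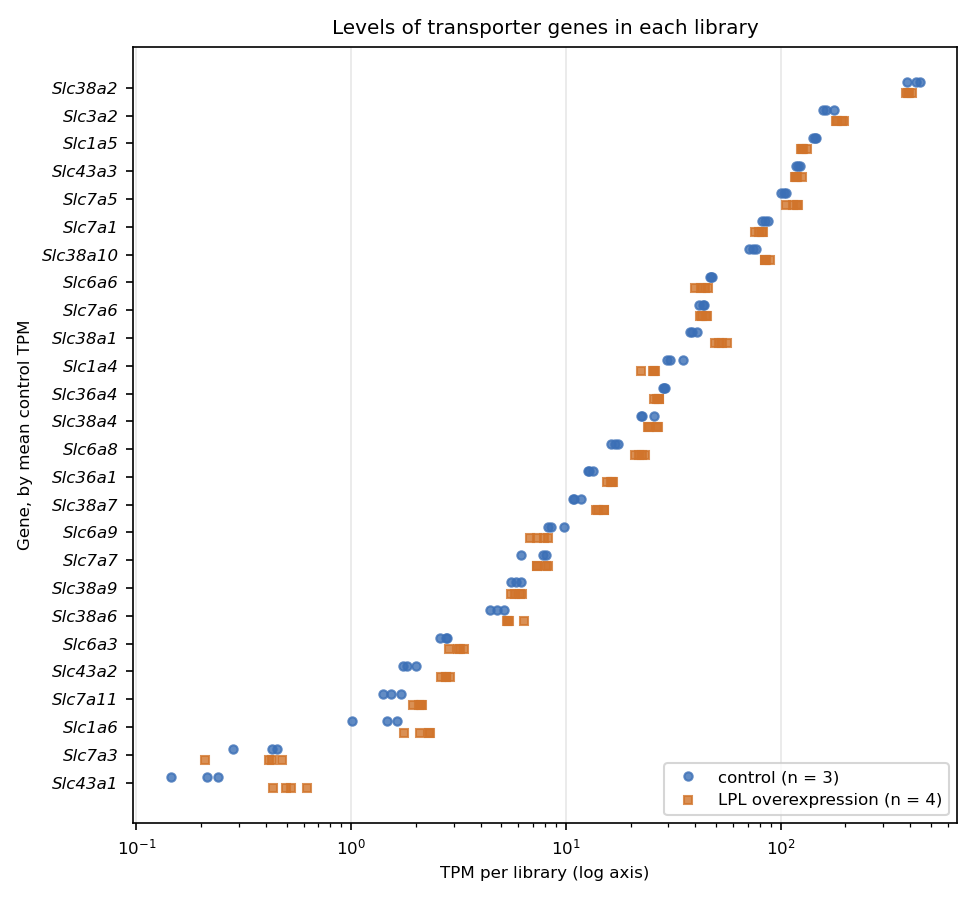
TPM of transporter genes in each library on a log axis, with genes ordered by mean control TPM (vertical axis), control libraries as blue circles and LPL overexpression libraries as orange squares; Slc6a17, at 0 in controls, is left off. Levels span from 388 to 442 TPM for Slc38a2 in controls to under 1 TPM for Slc7a3 and Slc43a1, and the distance between the groups is small beside the distance between genes.

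Among the heteromeric carriers, the heavy chain and its main light chain were both slightly higher. Slc3a2, the heavy chain also known as 4F2hc or CD98 (chromosome 19, 8706882 to 8723369, minus strand, mm10), was at 177, 158 and 162 TPM in controls 1 to 3 and at 192, 181, 183 and 196 TPM in LPL overexpression 1 to 4. All LPL overexpression libraries lay above all controls. The difference was 0.16 on the log2 scale (SE 0.03, adjusted p = 1.03e-04, edgeR), or 11.4%. The other heavy chain, Slc3a1, known from cystine uptake in kidney, had 9, 13 and 3 reads in controls and 7, 7, 5 and 7 in LPL overexpression, too few for a test. At Slc3a1, 91.6% of the oriented reads lay in the orientation opposite to the gene.

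Slc7a5, the light chain LAT1 for leucine and other large neutral amino acids (chromosome 8, 121881150 to 121907694, minus strand), was at 106, 100 and 103 TPM in controls and at 119, 106, 113 and 120 TPM in LPL overexpression. The lowest LPL overexpression library sat at the level of the highest control, and in CPM the ranges overlapped, with 3 of the 4 above all controls. The difference was 0.13 on the log2 scale (SE 0.03, adjusted p = 0.00130, edgeR). Slc7a6, a light chain that exchanges cationic for neutral amino acids, was at 43.6, 43.9 and 41.8 TPM in controls and 43.2, 45.2, 42.2 and 44.8 TPM in LPL overexpression, with mixed ranges and no call (adjusted p = 0.981, edgeR). Slc7a7, which performs the same kind of exchange, was not called either, at a mean of 7.36 TPM in controls and 7.76 TPM in LPL overexpression.

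Slc7a11, the light chain xCT that brings in cystine in exchange for glutamate and so feeds glutathione synthesis (chromosome 3, 49892526 to 50443614, minus strand), was low but higher with LPL overexpression. It was at 1.54, 1.41 and 1.70 TPM in controls and at 1.94, 2.11, 2.06 and 2.13 TPM in LPL overexpression, with no overlap. The difference was 0.39 on the log2 scale (SE 0.08, adjusted p = 1.13e-04, edgeR). The light chains that can pair with Slc3a2 (Slc7a5 to Slc7a8, Slc7a10 and Slc7a11) summed to 153 to 159 TPM in controls and 161 to 175 TPM in LPL overexpression. The ratio of Slc3a2 to that sum was 1.03 to 1.11 in controls and 1.10 to 1.12 in LPL overexpression, which overlap. Of all 10 light chain genes 4 were tested, 2 were higher, none was lower, and 3 had no read in any library.

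Family Slc1 held the decrease with the lowest adjusted p and the one of largest size among the members. Slc1a5, the exchanger ASCT2 for glutamine and other neutral amino acids (chromosome 7, 16781340 to 16798274, plus strand), was at 144, 141 and 145 TPM in controls and at 132, 126, 126 and 124 TPM in LPL overexpression. Every LPL overexpression library was below every control. It fell by 0.20 on the log2 scale (SE 0.03, adjusted p = 8.39e-09, edgeR), a change of -12.9%. Slc1a4, the related exchanger ASCT1 for alanine, serine, cysteine and threonine (chromosome 11, 20302180 to 20332713, minus strand), was at 35.0, 29.4 and 30.4 TPM in controls and at 26.0, 22.3, 25.8 and 25.3 TPM in LPL overexpression. These groups did not overlap either, and the fall of 0.38 (SE 0.05, adjusted p = 4.30e-06, edgeR) was larger than that of any other tested member.

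The glutamate carriers of the family were scarce. Slc1a6, a glutamate transporter best known from Purkinje neurons, was at 1.63, 1.47 and 1.01 TPM in controls and at 2.33, 1.77, 2.09 and 2.29 TPM in LPL overexpression. The ranges did not overlap, and the difference was 0.59 (SE 0.21, adjusted p = 0.0206, edgeR), carried by 71 control reads and 142 LPL overexpression reads. That call was lost with DESeq2 (adjusted p = 0.137), without control replicate 3 (0.43, adjusted p = 0.146) and without LPL overexpression replicate 1 (adjusted p = 0.0503). Slc1a1, Slc1a2 and Slc1a7 had between 2 and 5 reads over the 7 libraries and Slc1a3 none. Summed, the family went from 172 to 181 TPM in controls to 150 to 161 TPM in LPL overexpression, without overlap.

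The sodium-coupled neutral carriers of family Slc38 did not move together: of 11 members 7 were tested, 4 were higher, 1 was lower, 2 were not called and 2 had no read. Slc38a2, the carrier SNAT2 that cells raise when amino acids run short (chromosome 15, 96687394 to 96699698, minus strand), was the most abundant member, at 442, 424 and 388 TPM in controls and 391, 409, 396 and 384 TPM in LPL overexpression. The groups overlapped, since control replicate 3 lay among the LPL overexpression libraries. The fall of 0.11 (SE 0.03, adjusted p = 0.00819, edgeR) lost its call with DESeq2 (adjusted p = 0.0882), with library size as the only scaling (adjusted p = 0.103), with limma on TPM (adjusted p = 0.145) and without control replicate 1 (-0.07, adjusted p = 0.0623).

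Slc38a1, the close relative SNAT1 for glutamine, lies on the same strand near Slc38a2 (chromosome 15, 96571418 to 96642913) and was higher. Its values were 40.9, 37.8 and 38.5 TPM in controls and 53.4, 49.5, 51.5 and 56.1 TPM in LPL overexpression. The groups were well apart, by 0.40 on the log2 scale (SE 0.03, adjusted p = 7.34e-13, edgeR), or 32.1%, the lowest adjusted p of the members with reads in both groups. The third gene of that stretch, Slc38a4 (96994823 to 97055956, minus strand), was at 25.6, 22.5 and 22.4 TPM in controls and 24.0, 24.5, 26.8 and 26.7 TPM in LPL overexpression. It was not called (0.09, adjusted p = 0.121, edgeR), but was with upper-quartile scaling (adjusted p = 0.0441), library size only (adjusted p = 0.0229) and without control replicate 1 (0.15, adjusted p = 0.0193). These 3 neighbouring members thus gave a rise, a small fall and no call.

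Slc38a10, a less studied member of the family (chromosome 11, 120103960 to 120151346, minus strand), was at 73.8, 70.8 and 76.7 TPM in controls and 88.8, 84.1, 84.5 and 85.3 TPM in LPL overexpression. It was higher by 0.19 (SE 0.03, adjusted p = 1.50e-07, edgeR), with no overlap. Slc38a6, whose substrates are not well settled, was at 5.16, 4.44 and 4.79 TPM in controls and 5.38, 5.33, 5.45 and 6.41 TPM in LPL overexpression. Its difference of 0.21 (SE 0.07, adjusted p = 0.0127, edgeR) depended on single libraries and on the tool: the adjusted p was 0.117 without control replicate 2, 0.0869 without LPL overexpression replicate 4, 0.0900 with DESeq2 and 0.0669 with limma on log2(TPM + 0.5).

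**Figure D3:**
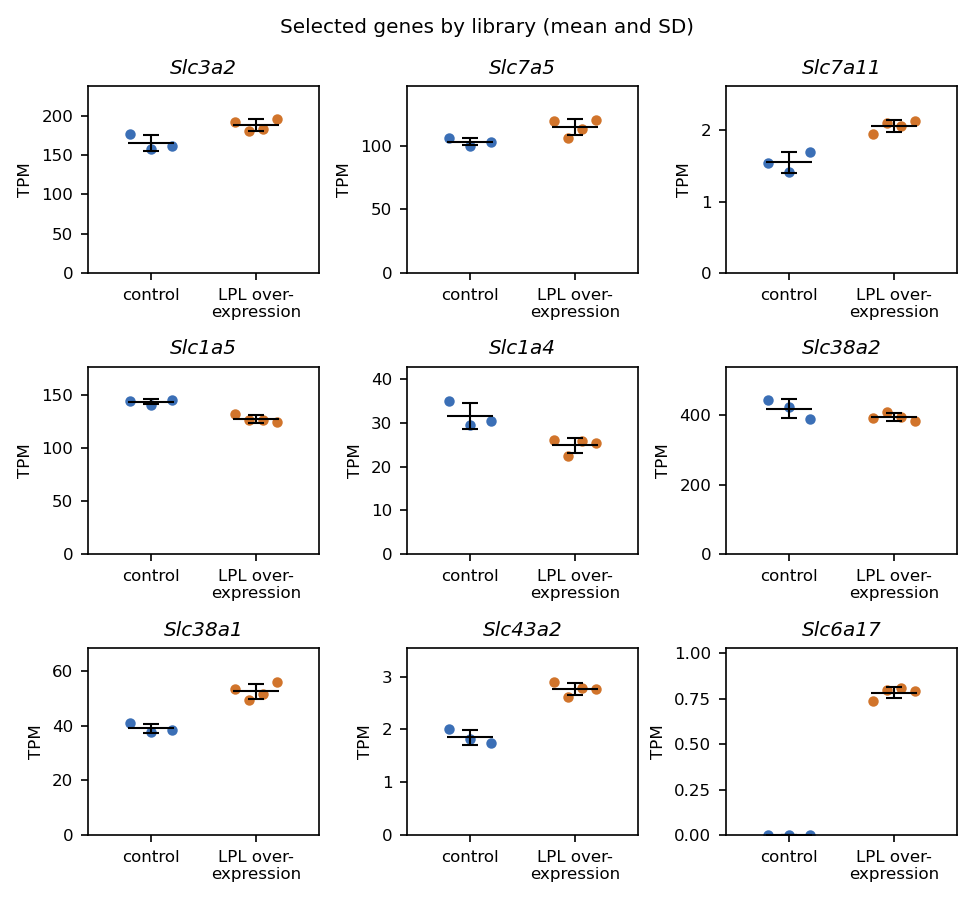
TPM of 9 transporter genes by library (points), with the mean and SD of 3 control (blue) and 4 LPL overexpression libraries (orange). Each vertical axis starts at 0, Slc1a5 and Slc1a4 lie lower in every LPL overexpression library, Slc3a2, Slc7a11, Slc38a1 and Slc43a2 higher, and Slc6a17 has no read in the controls.

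Slc38a9, Slc38a7 and Slc36a1 are described together because their products are known from lysosomes, a grouping made by hand and not one of the roles counted here. The first, Slc38a9, is the arginine sensor that reports to mTORC1 (chromosome 13, 112660766 to 112738743, plus strand), and was at 6.18, 5.52 and 5.86 TPM in controls and 5.80, 5.57, 6.09 and 6.26 TPM in LPL overexpression. The values were intermixed, and the estimate was -0.01 (SE 0.06, adjusted p = 0.920, edgeR). Slc38a7, which lets glutamine and asparagine out of lysosomes (chromosome 8, 95835920 to 95853539, minus strand), was at 10.9, 11.7 and 10.8 TPM in controls and 15.0, 13.8, 15.0 and 14.1 TPM in LPL overexpression. All LPL overexpression libraries were higher, by 0.35 (SE 0.06, adjusted p = 2.53e-06, edgeR). Slc36a1, a proton-coupled carrier of small neutral amino acids found on lysosomes (chromosome 11, 55204350 to 55236330, plus strand), was at 12.6, 12.7 and 13.4 TPM in controls and 15.6, 16.1, 16.3 and 16.6 TPM in LPL overexpression. The groups did not overlap and differed by 0.30 (SE 0.05, adjusted p = 7.24e-07, edgeR).

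Its family member Slc36a4, a carrier of proline and tryptophan, went the other way, from 28.5 ± 0.287 TPM (SD, n = 3) to 26.6 ± 0.715 TPM (SD, n = 4). It fell by 0.13 on the log2 scale (adjusted p = 0.00441, edgeR), a call that ended with library size as the only scaling (adjusted p = 0.0517). Slc36a2 and Slc36a3, beside Slc36a1 on chromosome 11, had 1 read each over the 7 libraries.

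Of the cationic carriers, Slc7a1, the arginine and lysine carrier CAT-1 (chromosome 5, 148327410 to 148399904, minus strand), was at 86.8, 81.9 and 84.5 TPM in controls and 82.1, 75.8, 79.1 and 82.6 TPM in LPL overexpression. In TPM, 2 LPL overexpression libraries reached into the control range, while in CPM all 4 were below. It fell by 0.11 (SE 0.03, adjusted p = 8.38e-04, edgeR), and the call ended with limma on log2(TPM + 0.5) (adjusted p = 0.0962). Slc7a3, the cationic carrier CAT-3, was at 0.386 TPM in controls and 0.382 TPM in LPL overexpression and was not called. Slc7a2, a further arginine carrier, had no read in any library.

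The Slc43 facilitators, which let large neutral amino acids pass without an ion gradient, included 2 of the 3 largest rises among tested members with control reads. Slc43a2 (LAT4, chromosome 11, 75531694 to 75577575, plus strand) was at 2.01, 1.82 and 1.74 TPM in controls and 2.89, 2.61, 2.78 and 2.76 TPM in LPL overexpression. It was higher by 0.54 (SE 0.09, adjusted p = 4.99e-07, edgeR), with no overlap. Slc43a1 (LAT3, chromosome 2, 84838850 to 84863594, plus strand) rose from 0.213, 0.144 and 0.240 TPM to 0.496, 0.431, 0.624 and 0.524 TPM. All 4 were above the controls, by 1.34 (SE 0.29, adjusted p = 1.32e-04, edgeR) from 28 and 95 reads, and by 0.54 on the scale log2(TPM + 0.5), which understates low genes. With so few control reads, Slc43a1 passed the count filter only through the LPL overexpression libraries.

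Slc43a3, the nucleobase carrier that lies beside Slc43a1 (84936579 to 84958509, plus strand), was much more abundant and was not called. Its values were 120, 123 and 117 TPM in controls and 118, 125, 116 and 119 TPM in LPL overexpression, with overlapping ranges and an estimate of -0.03 (SE 0.03, adjusted p = 0.348, edgeR). In CPM, 3 LPL overexpression libraries were below all controls and 1 was above all. Because Slc43a3 outweighs the other 2, the family's summed TPM overlapped between the groups, at 119 to 125 in controls and 120 to 128 in LPL overexpression.

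**Figure D4:**
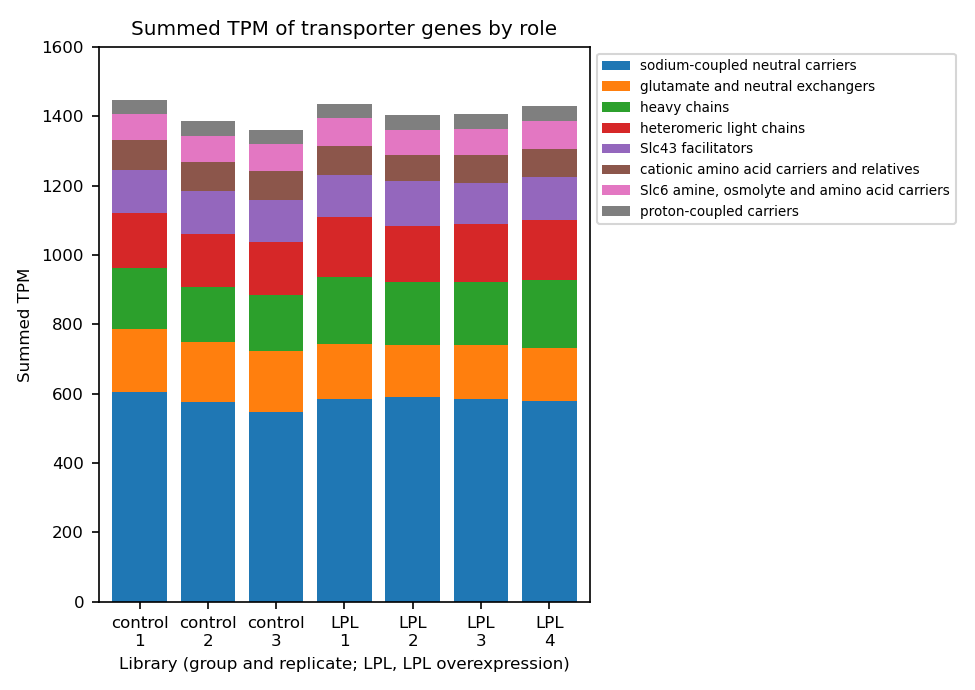
Summed TPM of the transporter genes in each library (vertical axis, from 0), stacked by role, for controls 1 to 3 and LPL overexpression (LPL) 1 to 4. The totals lie between 1361 and 1448 in every library, and the Slc1 exchangers, in orange, narrow from 172 to 181 in controls to 150 to 161 with LPL overexpression.

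In family Slc6, whose carriers of neurotransmitters, osmolytes and amino acids run on sodium and chloride, 5 of 19 genes were tested and 7 had no read. Slc6a6, the taurine carrier (chromosome 6, 91684053 to 91759066, plus strand), was at 47.6, 47.4 and 46.8 TPM in controls and 46.1, 40.0, 42.7 and 44.4 TPM in LPL overexpression. Each LPL overexpression library was below the controls, and the gene fell by 0.15 (SE 0.03, adjusted p = 9.32e-05, edgeR). Slc6a8, the creatine carrier (chromosome X, 73673150 to 73682502, plus strand), was at 16.3, 17.5 and 17.0 TPM in controls and 22.6, 21.9, 21.0 and 23.3 TPM in LPL overexpression. It was higher in each, by 0.37 (SE 0.04, adjusted p = 7.43e-10, edgeR), or 28.9%.

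Slc6a17, a carrier of neutral amino acids on synaptic vesicles (chromosome 3, 107467543 to 107518018, minus strand), had reads in the LPL overexpression libraries only. Its counts were 0 reads in each control and 56, 73, 63 and 68 reads in LPL overexpression, at 0.736, 0.795, 0.810 and 0.792 TPM. Against a floor of 3 reads over the control group (0.0372 CPM), its mean of 2.42 CPM was at least 65.2-fold higher (adjusted p = 4.88e-20, edgeR). Slc6a17 passed the count filter only through its LPL overexpression reads, so its direction was fixed before the test. Of the 12 pigment cell markers, 10 had at most 3 reads over the controls, while Pmel had 77 and Mitf 194; their part in this result was not tested.

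Slc6a9, the glycine carrier, went from 8.85 to 7.58 TPM, a fall of 0.25 (SE 0.07, adjusted p = 0.00238, edgeR) whose call ended without control replicate 3 (-0.17, adjusted p = 0.0704) and with limma on TPM (adjusted p = 0.0571). Slc6a3, the dopamine carrier, was at 2.71 and 3.14 TPM and was not called (adjusted p = 0.259, edgeR). Some further genes, of families Slc6 and Slc38, had 1 control read each and more in LPL overexpression. The ratio of pooled CPM was 14.3 for Slc38a3 (19 reads, exact 95% counting interval 2.27 to 594), 6.78 for Slc6a15 (9 reads, 0.939 to 297) and 5.27 for Slc6a4 (7 reads, 0.677 to 238). These intervals cover counting error only, and of the 3 only that of Slc38a3 leaves out 1. Slc6a19, a carrier of neutral amino acids in gut and kidney, went the other way, with 8, 3 and 5 reads in controls and 1, 1, 2 and 3 in LPL overexpression (means of 0.199 and 0.0654 CPM), too few for a test.

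Promoter sequences were read for the members that RefSeq covers (GRCm38.p6, the assembly behind mm10, windows of 300 bases from 250 before to 50 after an annotated start), 43 of the 61 members and 20 of the 27 tested. Motifs were chosen after the values had been seen and searched on both strands. TGATGNAAN is the letter pattern usually given for C/EBP-ATF response elements, which the factor ATF4 uses when amino acids are short. It occurred in 3.95% of all 32851 windows (1299) and in 4 of the 32 windows of tested members (12.5%). Counted by gene, it was held by 2.62% of the 9740 tested genes with a window and by 3 of the 20 tested members: Slc7a11, which was higher, Slc1a4, which was lower, and Slc7a7, which was not called. Of the 255 tested genes that hold it, 29.8% were higher and 16.9% lower, against 21.9% and 21.3% of all genes tested. These sets are unlike, since the latter shares are over all 13639 genes tested and not the 9740 with a window. Nothing is read from the calls of 3 members. The windows of Slc7a11 (chr3:50443564-50443863, minus strand) and Slc1a4 (chr11:20332664-20332963, minus strand) are shown because these 2 genes hold the same letters and moved in opposite directions. They are written 5′ to 3′ with the matches in capitals, and a match in the other orientation appears as its reverse complement:
Slc7a11: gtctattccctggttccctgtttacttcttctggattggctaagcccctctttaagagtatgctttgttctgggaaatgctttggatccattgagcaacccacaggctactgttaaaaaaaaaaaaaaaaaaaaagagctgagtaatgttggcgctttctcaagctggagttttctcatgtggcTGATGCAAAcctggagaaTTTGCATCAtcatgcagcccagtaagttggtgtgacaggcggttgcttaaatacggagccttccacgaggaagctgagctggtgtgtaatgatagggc
Slc1a4: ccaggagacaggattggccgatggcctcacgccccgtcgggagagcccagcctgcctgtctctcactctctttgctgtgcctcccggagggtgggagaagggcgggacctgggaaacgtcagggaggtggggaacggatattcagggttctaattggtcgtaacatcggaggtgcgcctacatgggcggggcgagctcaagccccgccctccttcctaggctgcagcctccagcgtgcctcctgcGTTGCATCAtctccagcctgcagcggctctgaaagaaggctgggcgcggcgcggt
Slc7a11 holds 2 matches, at bases 185 to 193 in the gene's orientation and 203 to 211 in the other, and Slc1a4 holds 1, at bases 246 to 254 in the other orientation. A match is a description of letters and not a measured site.

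CACGTG, an E-box that reads the same on both strands and forms the core of the pattern bound by TFEB and MITF family factors at lysosomal genes, occurred in 7.15% of all windows (2349) and in 5 of the 32 windows of tested members (15.6%). By gene, it was held by 11.9% of the 9740 tested genes and by 5 of the 20 tested members: Slc36a1, Slc38a7 and Slc43a1, which were higher, Slc1a6, whose higher call was lost in 3 alternatives, and Slc6a3, which was not called. Of the 1159 tested genes that hold it, 23.8% were higher and 23.2% lower, and nothing is read from so few members. The windows of the lysosomal carriers Slc36a1 (chr11:55204090-55204389, plus strand) and Slc38a7 (chr8:95853442-95853741, minus strand), which were both higher, follow with the E-box in capitals:
Slc36a1: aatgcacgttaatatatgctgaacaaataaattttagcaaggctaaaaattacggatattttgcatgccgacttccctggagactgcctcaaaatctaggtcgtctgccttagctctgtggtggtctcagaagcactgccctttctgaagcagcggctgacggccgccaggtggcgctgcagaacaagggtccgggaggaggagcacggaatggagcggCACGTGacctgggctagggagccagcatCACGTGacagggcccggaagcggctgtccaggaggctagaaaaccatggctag
Slc38a7: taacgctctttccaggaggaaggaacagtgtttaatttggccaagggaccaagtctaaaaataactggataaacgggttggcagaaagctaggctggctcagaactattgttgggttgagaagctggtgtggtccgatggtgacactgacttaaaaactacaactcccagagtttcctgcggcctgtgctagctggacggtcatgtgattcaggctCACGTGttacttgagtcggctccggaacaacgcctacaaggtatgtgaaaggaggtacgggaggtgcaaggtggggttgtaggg
Slc36a1 has the letters at bases 220 to 225 and 248 to 253, and Slc38a7 at bases 217 to 222. Binding of any factor was not measured.

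Genes around amino acid transport were described by 6 lists, and the medians of their log2 fold changes lay between -0.03 and 0.05. Values in parentheses below are log2 differences, the genes named as higher or lower passed the same edgeR threshold, and the counts can be set against the 43.2% of all genes called. Among other carriers of amino acids and peptides, 15 of 23 were tested, 4 were higher and 3 lower (median 0.03). Slc25a29, a mitochondrial carrier of basic amino acids, rose from 1.56 to 2.64 CPM (0.75), and Slc25a12, the mitochondrial aspartate-glutamate carrier, from 69.8 to 77.9 CPM (0.16). Slc16a10, a carrier of aromatic amino acids, fell from 37.3 to 33.0 CPM (-0.18), and Slc25a22, a mitochondrial glutamate carrier, from 25.8 to 23.0 CPM (-0.17), the last not called with limma on TPM (adjusted p = 0.0543).

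Of the accessory proteins that hold or remove carriers at the membrane, 7 of 9 were tested, 3 were higher and 1 lower (median -0.03). The ubiquitin ligases Nedd4 (0.16) and Nedd4l (0.11), which mark carriers for removal, were higher, and Cd44, a surface receptor reported to hold xCT in place, fell from 786 to 632 CPM (-0.31). All 36 genes on the list for sensing of amino acids by mTORC1 were tested, with 10 higher, 4 lower and 22 not called (median 0.05). Rragd, a Rag GTPase that brings mTORC1 to lysosomes, had 0 reads in controls and a mean of 2.47 CPM in LPL overexpression, at least 66.4-fold higher against the same floor of 3 reads. Rragd counts among the 10 higher genes, but it passed the count filter only through its LPL overexpression reads. Its direction was therefore fixed before the test. Sec13, a part of the GATOR2 complex and of secretory vesicle coats, rose from 112 to 172 CPM (0.63). Castor2 (listed as Gatsl2) fell by 0.25, and Rptor, the mTORC1 subunit raptor, fell by 0.14, a call lost with limma on TPM (adjusted p = 0.0570).

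On the list of amino acid response genes and ATF4 targets, 22 of 26 were tested, 6 were higher, 4 lower and 12 not called (median 0.02). Cth, which makes cysteine from cystathionine, rose from 0.497 to 1.66 CPM (1.73), and Psat1, an enzyme of serine synthesis, from 556 to 639 CPM (0.20). Eif4ebp1, a repressor of cap-dependent translation, fell from 202 to 174 CPM (-0.22), and Phgdh, the first enzyme of serine synthesis, from 147 to 138 CPM (-0.08). The fall of Phgdh was not called with upper-quartile scaling (adjusted p = 0.0722), library size only (adjusted p = 0.204), limma on TPM (adjusted p = 0.0820) or without control replicate 3 (-0.05, adjusted p = 0.167). Cebpb (0.44), Pycr1 (0.26), Ppp1r15a (0.24) and Nupr1 (0.22) were also higher, and Psph (-0.11) and Mthfd2 (-0.07) also lower. Psph and Mthfd2 were not called lower with limma on TPM, upper-quartile scaling or library size only. Atf4 itself, Atf3, Atf5, Ddit3, Trib3, Chac1 and Asns were among those not called. LPL overexpression replicate 4 had the lowest Atf4 and Chac1 of its group, at 381 and 31.2 CPM, which widened the spread behind these 2 results.

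The cytosolic aminoacyl-tRNA synthetases and their scaffold proteins, which load amino acids onto tRNA, were all tested (23), with 6 higher, 4 lower and 13 not called (median 0.02). The changes were slight: Nars 0.11 and Eprs 0.08 higher, Aimp2 -0.15 and Rars -0.11 lower. Among enzymes that use the transported amino acids, 25 of 32 were tested, with 10 higher and 6 lower (median 0.05). Shmt1, which joins serine and folate metabolism, rose from 25.5 to 44.2 CPM (0.79), and Ass1, which rebuilds arginine from citrulline, from 47.4 to 61.9 CPM (0.39). Nos3 fell from 1069.8 to 911 CPM (-0.23) and Bcat1, which starts the breakdown of leucine, isoleucine and valine, from 43.5 to 35.3 CPM (-0.30).

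**Figure D5:**
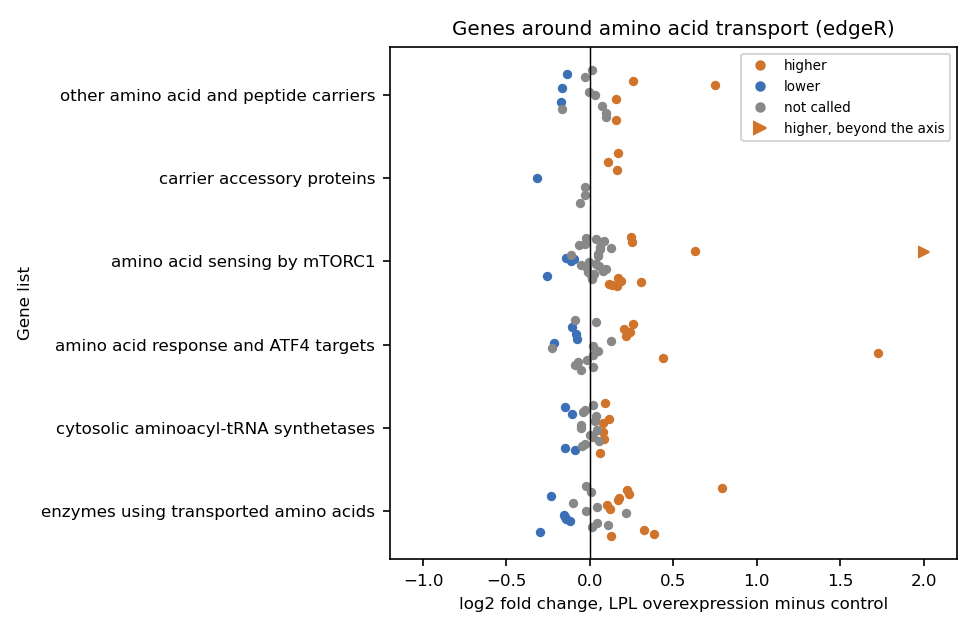
Log2 fold change, LPL overexpression minus control (horizontal axis), of each tested gene on 6 lists around amino acid transport, coloured by its edgeR call. Most genes lie near 0 on each list, and Rragd, drawn as a triangle at the right edge, lies beyond the axis because it has no control read.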

How the data were processed

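Total RNA of 3 control and 4 LPL overexpression samples of MS-1 cells was sequenced with a stranded kit. The authors aligned reads with STAR to mm10, per the submitters' processing notes, with versions not given in the sources used here. The deposited files give whole-number read counts per gene for each orientation, and the authors' TPM over all genes, which sum to 1000000 per library, per the file headers. The reverse orientation, 97.0% to 97.1% of oriented reads, was used throughout (24328418 to 29210847 reads per library), and 51 of the 61 members have the same start and end in GENCODE M21. Coordinates are 1-based.

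The counts of all genes went into edgeR 4.0.16 under R 4.3.3 (quasi-likelihood F test, group as the only term, TMM factors, genes kept by filterByExpr), and p-values had Benjamini-Hochberg adjustment over all 13639 genes tested. CPM are TMM-scaled. The pipeline was tested on simulated data. Alternatives were other scalings and filters, DESeq2 1.42.0, limma 3.58.1 on log2(TPM + 0.5) or log2(TPM + 0.1), both orientations together, the replicate block and leaving out each library. A group without reads was given a floor of 3 reads. Ratios from 1 read carry exact (Clopper-Pearson) 95% intervals, and intervals and floors cover counting error only.

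The members and lists were chosen with earlier results of these data known. Library values are given for the 10 members highest in controls, for called members of at least 1.5-fold and 1 CPM, and for Slc3a1, Slc3a2, Slc1a5, Slc7a1, Slc7a5, Slc7a11, Slc38a2 and Slc38a9. Of each list the 2 genes with the lowest adjusted p in each direction are named, and of the amino acid response list all called genes. Library values of Slc1a4, Slc6a8, Slc36a1, Slc38a4, Slc38a6, Slc38a7, Slc43a1 and Slc43a2, and the list genes named as not called, were chosen after values were seen. Older symbols in the files were used where needed, and Gprasp3 was not matched.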

Additional observations from a re-analysis of the deposited data

Results flagged for a closer look

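Slc38a6 stood out within the LPL overexpression group. Its TPM in replicate 4 was 6.41, while the other 3 libraries lay between 5.33 and 5.45, so the gap to the nearest library was 0.885 of the group's range, above Dixon's 95% critical value for 4 samples. Chance flags about 1 in 20 groups, and 27 genes were examined in this way. Without that library the log2 difference was 0.15 and the adjusted p 0.0869 (edgeR).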

How the results depend on the processing

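Over 17 alternatives, 14 of the 20 called transporter genes were called in each that tested them, and 6 lost the call in at least 1 (Slc38a2, Slc7a1, Slc36a4, Slc6a9, Slc38a6 and Slc1a6). Of the 7 not called, Slc38a4 gained a call in some, and 5 that took either sign across alternatives (Slc43a3, Slc7a6, Slc7a7, Slc38a9 and Slc7a3) were called in none. No called gene turned direction. Between 12 and 14 members were higher and between 4 and 7 lower, with 4 lower under limma on either TPM scale. Leaving out single libraries gave 12 to 14 higher and 6 to 7 lower. With the replicate block 12 were higher and 7 lower, and Slc38a6 lost its call (0.14, adjusted p = 0.0906). Replicate numbers are shared between groups but not said to pair samples, LPL overexpression replicate 4 has no partner, and the correlations of deviations between same-numbered libraries were -0.02, -0.04 and 0.02. The 10 highest members were the same in CPM as in TPM.

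With limma on either TPM scale, 1 gene was lower among other carriers, 1 on the mTORC1 list and 1 among ATF4 targets. With upper-quartile factors or library size only, 2 were lower on the mTORC1 list and 1 among ATF4 targets. DESeq2 left 3 synthetases higher. Without single libraries the lower ATF4 targets numbered 2 to 5 and the higher synthetases 2 to 6, with the lowest counts without control replicate 3 and control replicate 2. The causes were not tested. Depth limits the rarest genes: the 19 members with 1 to 30 reads over the 7 libraries were too shallow to test.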
